A study of Mus musculus with 36 samples.

Results

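The 9 genes described here, Drd1, Tac1, Drd2, Adora2a, Penk, Ppp1r1b, Rgs9, Pde10a and Rasd2, are known as genes of the projection neurons of the striatum. They were taken by name from a table of 56980 genes, and all 9 were among the 25601 genes with enough counts to be tested. The libraries came from the brains of 36 mice aged 37 to 45 days. Ndufs4-knockout animals (KO) and wild-type animals (WT) received either CP2 or vehicle by gavage for 3 days, and each sample title carries the letter F or M. These 3 labels give 8 groups. WT vehicle, WT CP2, KO vehicle and KO CP2 hold 5 samples each under F, and under M the groups WT CP2 and KO CP2 hold 5 and the groups WT vehicle and KO vehicle hold 3. All groups share the gavage and the age range. Strain, allele and any Cre driver are not given in the sources used here, and neither is whether the animals of a group came from separate litters. A p-value of a group comparison therefore weighs a difference against the spread between these samples only.

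Projection neurons make up most neurons of the striatum and use GABA as their transmitter. Those of the direct pathway carry the dopamine receptor Drd1 and the peptide precursor Tac1, and those of the indirect pathway carry the dopamine receptor Drd2, the adenosine receptor Adora2a and the enkephalin precursor Penk. Both kinds carry Ppp1r1b (DARPP-32, a phosphatase inhibitor switched by cAMP signalling), the G protein regulator Rgs9, the cyclic nucleotide phosphodiesterase Pde10a and the small GTPase Rasd2 (Rhes). Some members are also made elsewhere in the brain. Penk and Tac1 are made by neurons of the cortex and other regions, and Drd2 is made by dopamine neurons of the midbrain. The Ndufs4 protein belongs to complex I of the respiratory chain, its loss in mice serves to model Leigh syndrome, and CP2 inhibits that complex.

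The design text names hippocampus and cortex, and the tissue label says brain. Hippocampal genes (Prox1 at 18.0 to 59.8 CPM, counts-per-million) and cortical genes (Cux2 at 61.2 to 131 CPM) were present in each library. So were genes of regions that the design text does not name. Slc6a3, the dopamine transporter of midbrain dopamine neurons, ranged from 0.167 to 67.6 CPM, the thalamic gene Prkcd from 23.9 to 160 CPM, and the choroid plexus gene Ttr from 175 to 3251 CPM. Of 7 midbrain dopamine genes, only En1 was at 0 in some library, and of 6 cholinergic interneuron genes, only Lhx8. Each library held 46125000 to 88560000 gene counts (median 54749000). Ndufs4 was at 27.4 to 39.1 CPM in the 18 KO samples and at 38.9 to 62.8 CPM in the 18 WT samples, and the part of the gene that is deleted is not given in the sources used here. Xist was at 439 to 798 CPM in F samples and at most at 0.833 CPM in M samples, apart from L291 (KO CP2 M) at 47.3 CPM. In bulk RNA, fewer cells of a type and less RNA per cell cannot be told apart.

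Per kilobase of exon, the members spanned a wide range of levels. Penk stood at 73.2 CPM per kb, averaged over the 36 samples, followed by Ppp1r1b at 55.4, Rasd2 at 26.2, Pde10a at 9.03, Tac1 at 7.83, Adora2a at 6.54, Drd2 at 6.004, Rgs9 at 4.66 and Drd1 at 4.60 CPM per kb. The neighbours Adora2a and Drd2, and Rgs9 and Drd1, lay closer than the spread between samples. Depth was no limit for any member: the lowest count of a member in any library was 200 (Adora2a in L319). Genes that overlap Penk, Ppp1r1b or Pde10a in the annotation were each below 1 CPM on average.

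RefSeq promoter windows of 300 bases, reaching from 250 bases before to 50 bases after the start of transcription (build GRCm38.p6), were on hand for 6 of the 9 members. Those of a peptide precursor, a dopamine receptor and a signalling regulator are shown because these genes varied together across the libraries, as described further on, although they differ in cell type and role. They are those of Tac1 at chr6:7554811-7555110 on the plus strand, Drd2 at chr9:49340153-49340452 on the plus strand and Rgs9 at chr11:109298132-109298431 on the minus strand, each written 5′ to 3′ in the direction of the gene. Capitals mark the half-site of the cAMP response element (CGTCA, or TGACG on the other strand) and the GC box (GGGCGG, or CCGCCC on the other strand).
Tac1: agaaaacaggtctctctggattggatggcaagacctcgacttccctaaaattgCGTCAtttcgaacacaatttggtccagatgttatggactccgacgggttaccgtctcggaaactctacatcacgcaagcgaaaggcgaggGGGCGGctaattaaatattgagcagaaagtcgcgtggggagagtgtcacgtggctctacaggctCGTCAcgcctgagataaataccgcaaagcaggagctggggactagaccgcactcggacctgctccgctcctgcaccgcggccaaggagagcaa
Drd2: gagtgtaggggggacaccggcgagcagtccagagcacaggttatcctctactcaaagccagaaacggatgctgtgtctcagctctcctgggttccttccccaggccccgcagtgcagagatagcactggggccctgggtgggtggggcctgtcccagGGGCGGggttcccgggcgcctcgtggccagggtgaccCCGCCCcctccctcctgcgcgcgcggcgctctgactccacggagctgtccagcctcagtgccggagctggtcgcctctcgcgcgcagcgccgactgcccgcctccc
Rgs9: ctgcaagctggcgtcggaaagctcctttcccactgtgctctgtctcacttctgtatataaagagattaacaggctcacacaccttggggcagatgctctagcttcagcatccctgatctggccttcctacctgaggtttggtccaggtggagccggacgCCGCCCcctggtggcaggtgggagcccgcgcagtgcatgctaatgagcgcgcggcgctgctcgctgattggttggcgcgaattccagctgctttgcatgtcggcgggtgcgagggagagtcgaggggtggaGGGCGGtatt

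The Tac1 window held 2 half-sites and 1 GC box, with a GC content of 54.0%. The Drd2 window held 2 GC boxes and no half-site (GC 70.3%), and so did the Rgs9 window (GC 60.3%). Of the 6 members with a window, 1 had a half-site, 5 had a GC box and 0 had the full response element TGACGTCA. These 6 members had 8 windows, with more than 1 for Drd1 and Pde10a, and a member counted if any of its windows held the motif. Among 32851 RefSeq promoter windows of the same length, counted singly, 20.8% held a half-site, 35.7% a GC box and 1.79% the full element. Shares of members and of windows are therefore not of the same unit. The 3 windows shown have no motif of this search in common apart from the GC box. A match is a description of these letters and no binding was measured.

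Across the 36 libraries the members differed far more than most genes, and the differences were shared. Adora2a ranged 18.6-fold, from 4.23 CPM in L319 (KO vehicle M) to 78.8 CPM in L227 (KO CP2 F). The other members ranged from 3.66-fold (Tac1, 16.1 to 58.9 CPM) to 6.83-fold (Rgs9, 13.6 to 93.0 CPM). L227 held the highest value of 8 members, and the highest Drd2 value (37.1 CPM) was in L228 (WT CP2 F). All 9 members lay above their own median in 7 libraries and at or below it in 6 libraries, and 23 libraries were mixed. The libraries high in all members came from 5 groups: L227 in KO CP2 F, L228 and L272 in WT CP2 F, L281 and L282 in KO vehicle F, L295 in WT vehicle F and L322 in KO vehicle M.

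**Figure D1:**
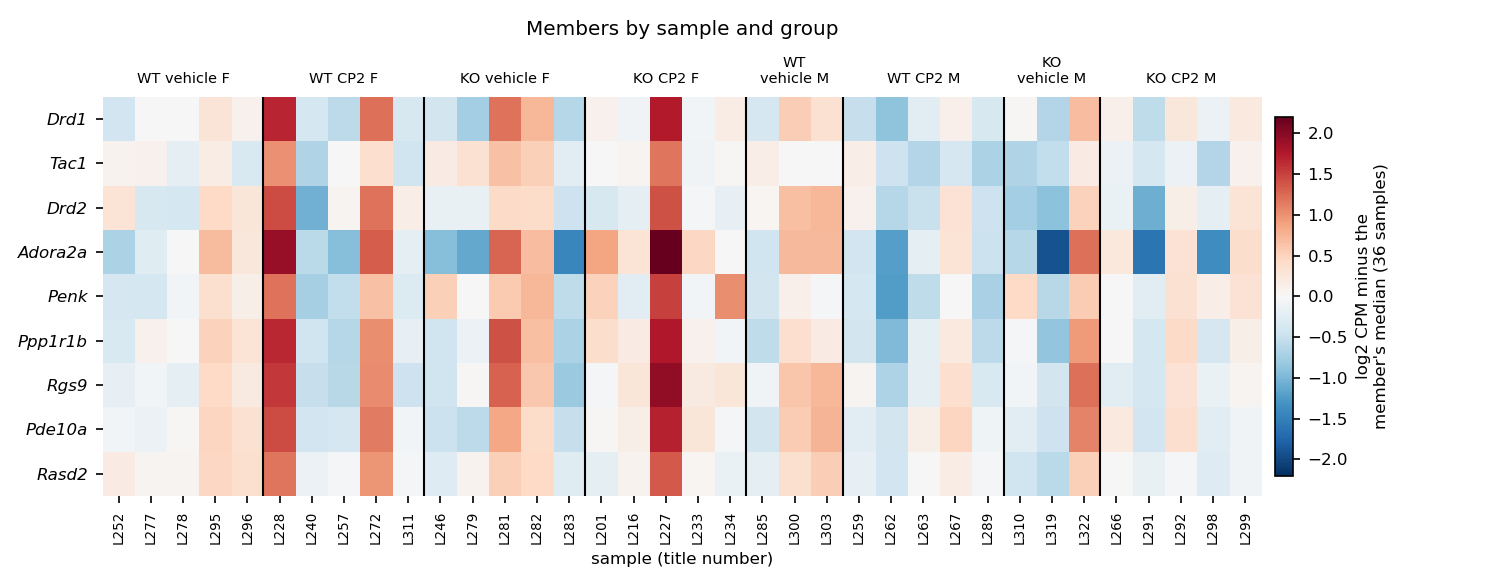
Each cell is the log2 CPM of 1 member (row) in 1 sample (column, by title number, sorted into the 8 groups), minus the member's median over the 36 samples. Whole columns are coloured alike: L227 and L228 are high and L283 and L319 are low in all 9 members, in groups that also hold samples near the median.

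Within groups, the members moved together. The deviations of 2 members from their group means were correlated over the 36 samples with Pearson's r between 0.68 (Tac1 and Penk) and 0.97 (Ppp1r1b and Rgs9), with a median of 0.86 over the 36 pairs. Spearman's rho was between 0.56 and 0.95, with a median of 0.82. By permutation of samples within groups, the largest adjusted p of the 36 pairs was 0.00077 for r and 0.00422 for rho. Without the 2 samples farthest from the median the lowest r was 0.53 and the median 0.80. Without the 3 libraries of highest striatal expression (L227, L228 and L272) the lowest r was 0.50 and the median 0.78. The direct and indirect pathway genes did not form separate blocks, since Drd1 followed Adora2a with r = 0.93 and rho = 0.92 (permutation p = 1e-05 for each, the smallest the permutations can give). The median r between pairs of the same list was 0.93 for 7 choroid plexus genes, 0.59 for 32 other striatal genes, 0.21 for 12 hippocampal genes and 0.19 for 10 cortical genes.

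The genes outside the 9 whose pattern was most like that of the members were nearly all striatal genes of the wider list. Likeness was Pearson's r between a gene's deviations from its group means and the mean of the members' standardised deviations, over 36 samples. Among the 12 most alike were Pde1b (r = 0.96), Gpr6 (0.93), Cd4 (0.93), Syndig1l (0.93), Adcy5 (0.91), Gng7 (0.90), Lrrc10b (0.90), Scn4b (0.90), Actn2 (0.88), Serpina9 (0.88) and Pde7b (0.87). Adcy5 and Gng7 are an adenylyl cyclase and a G protein subunit of the cAMP pathway of striatal neurons. Cd4 and Pde7b were not on the list. Member by member, Pde1b came closest to Drd1 (r = 0.95) and Rgs9 (0.94), Rasgrp2 to Tac1 (0.87) and Drd2 (0.88), and Rxrg, a retinoid receptor, to Penk (0.86).

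To measure this shared variation without the members, a striatal score was taken as the mean log2 CPM of 13 other striatal genes, among them Adcy5, Rarb, Rxrg, Scn4b, Syndig1l, Six3 and Serpina9. These 13 genes were chosen with earlier results of these data known, so the choice was not independent of the data. Relative to its median the score ran from -0.91 in L262 (WT CP2 M) to 1.51 in L227. It was more than 1 above the median in 3 libraries, L227, L228 (1.46) and L272 (1.07), all of them F samples given CP2. Within groups the score accounted for 63.1% (Tac1) to 92.9% (Rgs9) of the variance of a member's log2 CPM. Each unit of the score went with 0.60 ± 0.09 log2 units (SE) of Tac1, 0.76 ± 0.04 of Rasd2, 0.83 ± 0.11 of Penk, 0.99 ± 0.10 of Drd2, 1.06 ± 0.06 of Pde10a, 1.14 ± 0.08 of Drd1, 1.18 ± 0.08 of Ppp1r1b, 1.18 ± 0.06 of Rgs9 and 1.64 ± 0.15 of Adora2a. The slopes of Tac1, Rasd2 and Penk lay below those of Drd1, Ppp1r1b and Rgs9, and that of Adora2a was the steepest of the 9.

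**Figure D2:**
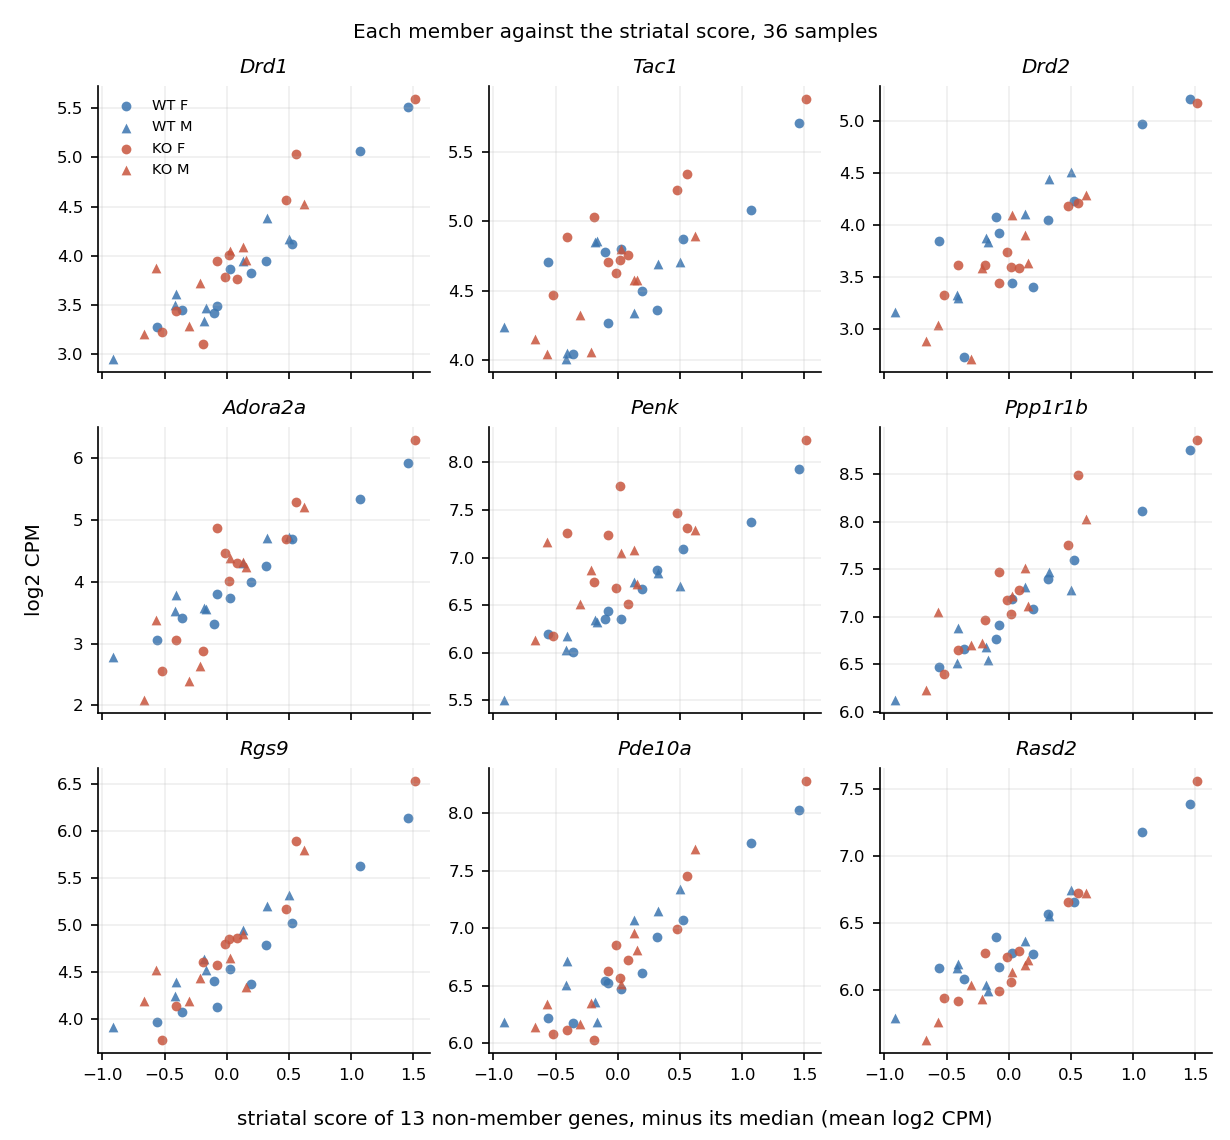
Each panel plots the log2 CPM of 1 member against the striatal score of 13 non-member genes (minus its median) for the 36 samples, coloured by genotype and shaped by letter. The points follow the score most closely for Rgs9, Rasd2 and Pde10a (91.8% to 92.9% of the within-group variance) and least for Tac1 (63.1%) and Penk (69.2%).

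The score itself was compared with genes of other regions over the 36 samples, as deviations from group means, in 8 relations. It went with lower hippocampal expression (Pearson's r = -0.57, permutation p = 0.0138, adjusted 0.11; Spearman's rho = -0.34, p = 0.0658, adjusted 0.256) and with higher expression of cholinergic interneuron genes (r = 0.45, p = 0.0304, adjusted 0.122; rho = 0.43, p = 0.0263, adjusted 0.21). Neither passed adjustment over the 8 relations, and without the 2 samples farthest from the median the values were -0.25 and 0.28, so both rest largely on those samples. For midbrain, thalamic, cortical and choroid plexus genes r was -0.43, -0.35, 0.23 and -0.03, with adjusted p of 0.182, 0.182, 0.373 and 0.875 and rho of -0.32, -0.30, 0.24 and 0.04. For the share of reads outside annotated genes r was -0.20 (rho -0.21, adjusted p 0.373 for r), and for the total of gene counts r was -0.13 (rho -0.19, adjusted p 0.438 for r). How much striatal tissue each sample held was not measured, and its part in the score was not tested.

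Samples of the same group therefore differed more in these genes than groups did. The standard deviation of log2 CPM within groups was 0.41 for Tac1, 0.43 for Rasd2, 0.55 for Penk, 0.60 for Pde10a, 0.61 for Drd2, 0.67 for Drd1, 0.67 for Rgs9, 0.68 for Ppp1r1b and 0.99 for Adora2a. The median of the 10374 tested genes with a mean of at least 10 CPM was 0.14, and the members lay between the 98.1th and the 99.9th percentile of those genes. Groups accounted for 10.2% (Pde10a) to 30.7% (Tac1) of a member's variance, with a median of 17.8%, where 8 groups without any difference would give 20% on average. The median was 37.4% for the 10374 genes and 30.9% for all tested genes. Leaving out L322 raised the members' median share to 25.6%. After the score was subtracted, the standard deviation within groups was 0.12 for Rasd2, 0.18 for Pde10a, 0.18 for Rgs9, 0.22 for Ppp1r1b, 0.23 for Drd1, 0.25 for Tac1, 0.30 for Drd2, 0.31 for Penk and 0.42 for Adora2a. The share between groups was then 23.4% for Drd2, 25.6% for Drd1, 28.2% for Adora2a, 34.7% for Ppp1r1b and 37.2% for Tac1. It was 37.9% for Rasd2, 46.8% for Penk, 49.5% for Pde10a and 62.7% for Rgs9. This share was not computed over all tested genes after subtraction, so the medians above are no reference for it.

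**Figure D3:**
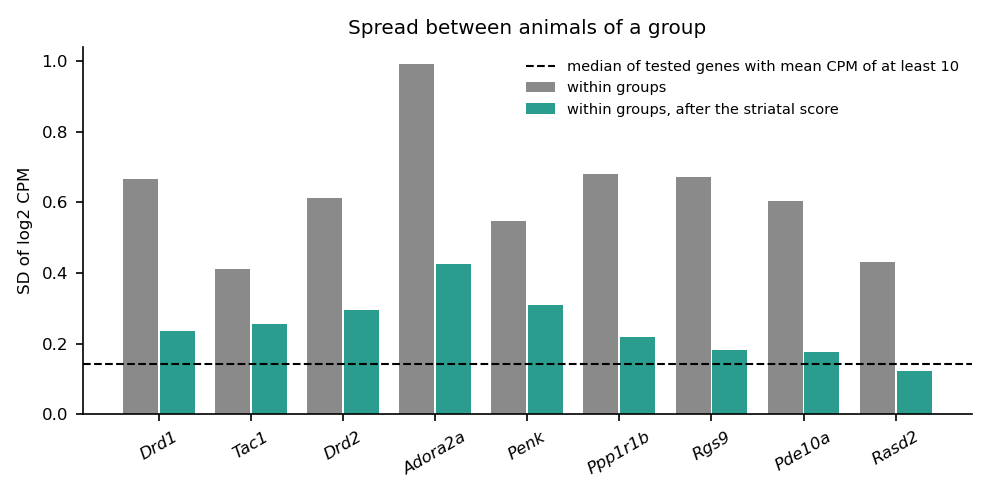
For each member the bars give the standard deviation of log2 CPM between samples of the same group (1 per animal), before and after the striatal score is subtracted, and the line is the median of genes with a mean of at least 10 CPM. Before subtraction the members stand at 0.41 to 0.99 against a median of 0.14, and after it at 0.12 to 0.42.

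In the fit of the 8 groups without the score, no member was called in any comparison. Of 162 tests (9 members in 18 comparisons) with edgeR's quasi-likelihood test, 0 passed an adjusted p of 0.05, 2 had an unadjusted p under 0.05, and in DESeq2 1 passed. The 2 were Tac1 in M against F and Penk in KO against WT under CP2. Over all tested genes, 0% to 11.6% were called in a comparison, and 2.14% to 24.9% had an unadjusted p under 0.05. In 0 of the 162 tests did the samples of both sides fail to overlap in CPM. In the averaged, interaction and F minus M comparisons each side pools several groups, so overlap there is nearly given. After the score was subtracted, 7 of the 162 did not overlap. In KO against WT under vehicle, M, these were Drd2, Penk, Rgs9 and Pde10a. In CP2 against vehicle in KO, M, they were Rgs9 and Pde10a, and in KO against WT under CP2, F, Rgs9. Both M comparisons include a group of 3 samples, and such small groups separate easily. The share over all tested genes was not computed for either count, so neither is read as a result about the members. The interval of a typical difference was wide: for Drd1 in KO against WT under vehicle, averaged over F and M, the interval of 1.96 standard errors ran from -0.62 to 0.77 log2 units. A missing call therefore does not show that a member was equal between groups at this spread. The sections below give each comparison without the score and then with the score as a covariate of the same fit across all 25601 genes. Of the 162 tests with the score, 12 passed and 43 had an unadjusted p under 0.05. With the score, 0% to 12.4% of all tested genes were called in a comparison, and 2.54% to 25.2% had an unadjusted p under 0.05.

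Under vehicle, KO against WT asks what loss of Ndufs4 does on its own. Penk, the enkephalin precursor of indirect pathway neurons, was at 72.3, 107, 153, 159 and 177 CPM in KO vehicle F and at 81.8, 82.1, 102, 117 and 136 CPM in WT vehicle F. Under M it was at 70.0, 144 and 157 CPM in KO vehicle and at 80.0, 104 and 115 CPM in WT vehicle. In both letters the KO samples reached higher and their lowest sample lay below every WT sample, so the groups overlapped. Averaged over F and M the log2 fold change was 0.34 ± 0.28 (SE, adjusted p = 0.529, edgeR), and no member was called, against 6.67% of tested genes in this comparison. With the score, Penk rose by 0.58 ± 0.17 (adjusted p = 0.0251), Ppp1r1b by 0.42 ± 0.11 (adjusted p = 0.0181) and Rgs9 by 0.35 ± 0.09 (adjusted p = 0.0103), so 3 of 9 members were called, against 9.06% of tested genes. Drd1 missed the threshold at 0.34 ± 0.11 (adjusted p = 0.0533), and Rasd2 (-0.02 ± 0.06), Adora2a (0.05 ± 0.22), Tac1 (0.14 ± 0.13), Pde10a (0.15 ± 0.09) and Drd2 (-0.17 ± 0.14) were not called. The members' median was 0.15, against 0.02 over all tested genes. Genes of other regions moved in the same comparison. Of 8 thalamic genes, 2 were called lower in KO without the score and 3 with it, with all 8 at an unadjusted p under 0.05 and a median of -0.64, and of 7 midbrain dopamine genes 1 was called lower in either fit. The 8 thalamic genes summed to 231 to 567.6 CPM in KO vehicle F, 301 to 474 CPM in WT vehicle F, 203 to 260 CPM in KO vehicle M and 414 to 488 CPM in WT vehicle M, with no overlap under M. Under F alone 3 of 12 hippocampal genes were called lower in both fits. The part of the thalamic genes in the members' values was not tested.

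Ppp1r1b and Rgs9 had KO samples on both sides of the WT samples under F. Ppp1r1b was at 83.9, 100, 125, 216.25 and 359 CPM in KO vehicle F, and at 108, 135, 145, 168 and 194 CPM in WT vehicle F. The KO samples L282 and L281 were above every WT sample and L283 and L246 below every WT sample. Rgs9 was at 13.6, 17.6, 24.4, 36.2 and 59.5 CPM in KO vehicle F and at 20.7, 21.1, 23.1, 27.6 and 32.4 CPM in WT vehicle F, with the same KO samples at the ends. The score of L281 and L282 was high as well. For Rgs9 under F alone the log2 fold change was 0.27 ± 0.44 without the score (0 of 9 called, against 4.96% of tested genes) and 0.37 ± 0.11 with it (adjusted p = 0.0336; 1 of 9 called, against 6.05% of tested genes). That call was lost with reads outside genes as a further covariate (0.18, adjusted p = 0.522), with a score built from the 19 other genes of the striatal list (0.36, adjusted p = 0.156), with a hippocampal score added (0.37, adjusted p = 0.141) and without L279, L281, L278, L295 or L296. The share of reads outside genes was 6.19% to 11.7% in KO vehicle F and 5.09% to 7.04% in WT vehicle F. Under M alone no member was called with or without the score, against 2.29% and 0.516% of tested genes. With the score the average for Rgs9 was called in each of the 36 fits that leave out 1 library, the call for Penk was lost without L310, L285 or L303, and that for Ppp1r1b without L310, L322, L285 or L303. Adding a covariate for reads outside annotated genes ended all 3 calls (Penk 0.62, adjusted p = 0.0876; Ppp1r1b 0.27, adjusted p = 0.265; Rgs9 0.21, adjusted p = 0.265), and so did the score of the 19 other striatal genes (Penk 0.49, adjusted p = 0.068; Ppp1r1b 0.28, adjusted p = 0.298; Rgs9 0.22, adjusted p = 0.271). Adding a midbrain score ended the calls for Penk (0.53, adjusted p = 0.0767) and Ppp1r1b (0.33, adjusted p = 0.0739), and adding a hippocampal score ended that for Penk (0.52, adjusted p = 0.0758).

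**Figure D4:**
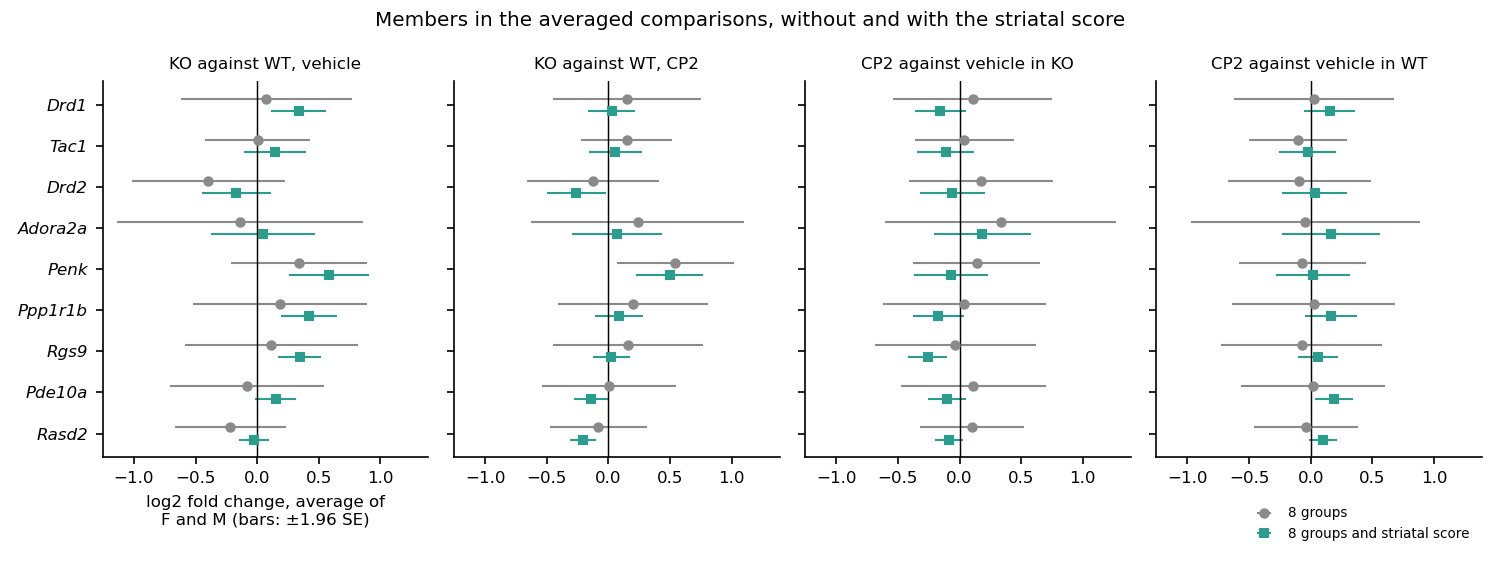
Points are log2 fold changes averaged over F and M for the 9 members in 4 comparisons, from the fit of 8 groups (circles) and with the striatal score as a covariate (squares), and bars are 1.96 standard errors. The score shortens the bars of all members, and squares clear of 0 include Penk in both KO panels (0.58 and 0.50) and Rasd2 in KO against WT under CP2 (-0.21).

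Under CP2, Penk was the member with the lowest unadjusted p in the averaged KO against WT comparison without the score, while with the score that was Rasd2. Penk was at 91.1, 102, 151, 215 and 301 CPM in KO CP2 F and at 64.2, 73.3, 86.4, 166 and 244 CPM in WT CP2 F. Under M it was at 91.0, 106, 117, 133 and 135 CPM in KO CP2 and at 45.5, 65.2, 72.5, 80.9 and 107 CPM in WT CP2. Under M every KO sample but 2 lay above the highest WT sample, while under F the WT libraries L228 and L272, high in all members, overlapped the KO samples. Without the score the averaged log2 fold change was 0.54 ± 0.24 (unadjusted p = 0.0336, adjusted p = 0.157, edgeR; 0 of 9 members called, against 11.6% of tested genes). It was 0.73 (adjusted p = 0.0384) without L228, and 0.77 (adjusted p = 0.0214) without the 3 libraries of high score. With the score Penk rose by 0.50 ± 0.14 (adjusted p = 0.0187), and this call stood in each of the 36 fits that leave out 1 library (0.38 to 0.56, highest adjusted p = 0.0499). Leaving out the 3 libraries of high score together ended it (0.55, adjusted p = 0.0551). An exact two-sided permutation test of log2 CPM under M alone gave a mean difference of 0.69 (p = 0.0238, adjusted 1 over 72 such tests, with 0.00794 the smallest p the design allows).

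Rasd2, the GTPase Rhes, was called lower in KO under CP2, but only in the fit with the score. It was at 63.4, 66.6, 75.9, 78.3 and 189 CPM in KO CP2 F and at 67.7, 71.4, 71.9, 144 and 168 CPM in WT CP2 F. Under M it was at 61.0, 65.7, 70.1, 72.5 and 74.7 CPM in KO CP2 and at 55.2, 65.4, 71.7, 73.1 and 82.3 CPM in WT CP2. The groups overlapped throughout, and without the score the averaged log2 fold change was -0.08 ± 0.20 (adjusted p = 0.863). With the score Rasd2 fell by 0.21 (SE 0.05, adjusted p = 0.00856), called in each of the 36 fits that leave out 1 library. The fall was 0.09 (adjusted p = 0.49) with the score of 19 other striatal genes. With the score 2 of 9 members were called, Penk and Rasd2, against 12.4% of tested genes. Of the 13 genes of the score, 1 was called higher and 1 lower here with the score, 5 had an unadjusted p under 0.05 and the median was -0.12, so the score was not free of this comparison. The higher one, Serpina9, was at 0.77 ± 0.20 (adjusted p = 0.0083), and it is named after its values were seen. Ptpn5, a striatal phosphatase outside the score and also named after its values were seen, was called lower (-0.26 ± 0.05, adjusted p = 0.000372).

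By letter, KO against WT under CP2 called 0 of 9 members in F (against 2.00% of tested genes without the score and 2.59% with it). In M it called 0 of 9 without the score (against 9.99%) and 2 of 9 with it (against 10.4%). These were Pde10a, which fell by 0.35 (SE 0.10, adjusted p = 0.0251), and Rasd2, which fell by 0.25 (SE 0.08, adjusted p = 0.029). Pde10a was at 72.0, 81.5, 91.2, 112 and 124 CPM in KO CP2 M and at 72.7, 82.2, 90.8, 105 and 134 CPM in WT CP2 M, which overlap almost entirely. The call for Pde10a was lost without L291 (-0.33, adjusted p = 0.0722), L299, L262 or L263, and that for Rasd2 was lost without any of 7 libraries. With the score of the 19 other striatal genes the values were -0.11 for Pde10a (adjusted p = 0.725) and -0.07 for Rasd2 (adjusted p = 0.715), and with reads outside genes as a further covariate they were -0.28 (adjusted p = 0.254) and -0.24 (adjusted p = 0.164). Adding the hippocampal score also ended the call for Pde10a (-0.34, adjusted p = 0.0718). Rgs9 differed between the letters with the score: the F minus M difference of the KO against WT effect was 0.62 ± 0.15 (adjusted p = 0.0362; 1 of 9 members called, against 1.04% of tested genes, and 0 of 9 without the score, against 0.82%). That call was lost without any of 11 libraries and in each of the 5 other versions of the score fit. No member was called in the F minus M differences of KO against WT under vehicle (against 0.102% of tested genes, 0.266% with the score), CP2 against vehicle in KO (0.691% and 1.21%) or CP2 against vehicle in WT (0% in both fits).

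**Figure D5:**
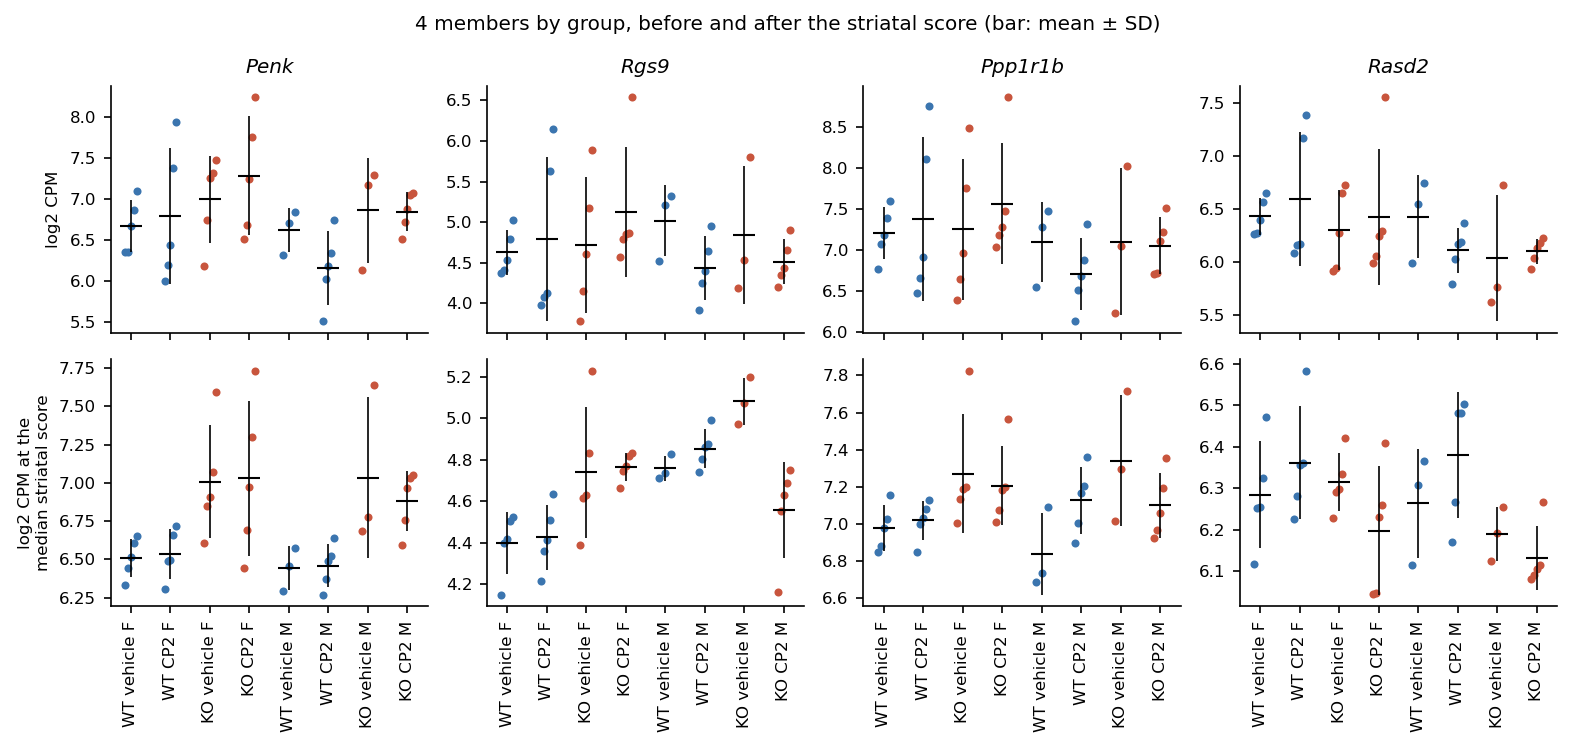
For Penk, Rgs9, Ppp1r1b and Rasd2 the points are samples in the 8 groups, as log2 CPM (upper row) and as log2 CPM at the median striatal score (lower row), with mean ± SD. At the median score the 18 WT samples of Penk lie between 6.27 and 6.72, and 13 of the 18 KO samples lie above them. This count was not computed over all tested genes.

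At the median score, Penk was the member with the most KO samples above every WT sample. The 18 WT samples lay between 6.27 and 6.72 log2 CPM (median 6.49) and the 18 KO samples between 6.44 and 7.73 (median 6.94), and 13 KO samples lay above every WT sample. These samples are the ones the fit with the score used, so this is the same result in another form. How often other tested genes reach such a count was not computed. The standard deviation within groups was 0.40 in KO and 0.14 in WT. The KO samples also spread more than the WT samples for Adora2a (0.55 and 0.20), Ppp1r1b (0.26 and 0.15), Drd1 (0.28 and 0.17) and Rgs9 (0.22 and 0.13), and less for Tac1 (0.16 and 0.32), Drd2 (0.24 and 0.34), Pde10a (0.16 and 0.18) and Rasd2 (0.10 and 0.14). These spreads were not tested. For Rasd2 6 KO samples lay below every WT sample and 5 WT samples above every KO sample, counts not computed for other tested genes either.

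CP2 against vehicle asks what the compound does within a genotype. In WT no member was called, averaged (against 0% of tested genes) or by letter, and with the score none was called either. In this comparison edgeR called 0 of all tested genes, with 1031 at an unadjusted p under 0.05. In KO the averaged comparison called 0 of 9 members without the score (against 3.91% of tested genes) and 0 of 9 with it (against 4.65%), where Rgs9 missed the threshold at -0.26 ± 0.08 (adjusted p = 0.0578). Without the score the averaged log2 fold changes in KO ran from -0.03 ± 0.33 (Rgs9) to 0.33 ± 0.48 (Adora2a). In KO under F no member was called with or without the score, against 0.156% and 0.0859% of tested genes.

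In KO under M, Rgs9 was at 18.3, 20.3, 21.6, 25.2 and 29.9 CPM with CP2 and at 18.2, 23.0 and 55.8 CPM with vehicle. The groups overlapped in CPM, and L322 stood far above the other 2 vehicle samples. At the median score the 5 CP2 samples lay between 4.16 and 4.75 log2 CPM and the 3 vehicle samples between 4.97 and 5.20, with no overlap. Pde10a did not overlap there either, and the share over all tested genes was not computed. Without the score 0 of 9 members were called (against 5.10% of tested genes), and with it Rgs9 fell by 0.51 (SE 0.12, adjusted p = 0.00836; 1 of 9 called, against 6.37%). Without L322 the value was -0.52 with an adjusted p of 0.0707. The share of reads outside annotated genes did not overlap between these groups (5.18% to 9.06% with CP2, 11.3% to 13.03% with vehicle). With that share as a further covariate the value was -0.27 (adjusted p = 0.567), and with the score of the 19 other striatal genes it was -0.37 (adjusted p = 0.207). The KO vehicle samples also enter KO against WT under vehicle, where Rgs9 was higher, so these are not independent results. The genotype by CP2 interaction was called for no member, without the score (against 0.715% of tested genes) or with it (against 1.27%), and with it was -0.32 ± 0.12 for Rgs9 (adjusted p = 0.156).

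M against F, averaged over the 4 genotype and treatment groups, showed lower fitted values in M for all 9 members without the score, from -0.17 ± 0.21 (Pde10a) to -0.48 ± 0.34 (Adora2a), with a median of -0.36 against 0.000625 over all tested genes. None was called (against 10.3% of tested genes). Tac1, the substance P precursor, came nearest at -0.41 ± 0.14 (unadjusted p = 0.00905, adjusted p = 0.0709, edgeR). It ran from 16.4 to 58.9 CPM in the 20 F samples and from 16.1 to 29.7 CPM in the 16 M samples. Tac1 passed in DESeq2 (-0.40, adjusted p = 0.0473), with a hippocampal score as covariate (-0.36, adjusted p = 0.0356), and in 5 fits that left out L283, L240, L311, L322 or L259. With the striatal score it was -0.19 ± 0.09 (adjusted p = 0.174). Relative to its overall median the score had a median of 0.02 in F and -0.17 in M, and the 3 libraries of highest score were F.

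With the score, Rgs9 and Pde10a turned to higher values in M. Rgs9 was 0.23 ± 0.06 higher (adjusted p = 0.0148), against -0.23 ± 0.24 without the score, and Pde10a was 0.20 ± 0.06 higher (adjusted p = 0.0277), against -0.17 ± 0.21. These were 2 of 9 members, against 8.03% of tested genes. The share of reads outside annotated genes also differed between the letters, with a median of 6.29% in F (5.09% to 11.7%) and 10.3% in M (5.18% to 13.2%). With that share as a further covariate the values were 0.07 for Rgs9 (adjusted p = 0.776) and 0.14 for Pde10a (adjusted p = 0.485), and with the score of the 19 other striatal genes they were 0.19 (adjusted p = 0.153) and 0.17 (adjusted p = 0.234). Rgs9 was called in each of the 36 fits that leave out 1 library, and without L291 was 0.22 (adjusted p = 0.0217). The call for Pde10a was lost without L322 (0.18, adjusted p = 0.101), L234, L292, L300 or L303.

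The wider striatal list, 32 genes other than the members, behaved in the same way without the score: 0 of 32 were called in any of the 18 comparisons, against 0% to 11.6% of tested genes. In KO against WT under vehicle, averaged, the log2 fold change was -0.20 ± 0.15 for Adcy5, -0.27 ± 0.25 for the retinoic acid receptor Rarb and -0.17 ± 0.30 for Rxrg, and the median of the 32 was -0.16, against 0.0054 for the 9 members. Under CP2 the median of the 32 was 0.03, against 0.15 for the members. With the score 2 of the 32 rose in KO under vehicle (against 9.06% of tested genes called), and 1 rose and 4 fell in KO under CP2 (against 12.4%), shares near those of all tested genes. The score is built from 13 of the 32, so with it the list is not independent of the covariate. Of these 13, 0 were called under vehicle, and 1 rose and 1 fell under CP2.

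Drd2, like each other member, kept variation that the striatal score did not take up. Within groups the score accounted for 77.4% of its variance, more than for Tac1 (63.1%) and Penk (69.2%) and less than for the others. After the score was subtracted, the deviations of Drd2 followed a score of 7 midbrain dopamine genes with Pearson's r = 0.44 (permutation p = 0.0145, adjusted 0.392 over 27 relations) and Spearman's rho = 0.56 (p = 0.00111, adjusted 0.03), over 36 samples, and without the 2 farthest samples r was 0.55. Among the other relations of a member with the midbrain, hippocampal or thalamic score none had an adjusted p under 0.05. Without the 2 farthest samples, r with the midbrain score was -0.46 for Ppp1r1b and -0.43 for Drd1, opposite in sign to Drd2. The 7 midbrain genes summed to 64.9 to 191 CPM in KO CP2 F, 106 to 247 in KO vehicle F, 81.8 to 336 in WT CP2 F and 118 to 285.3 in WT vehicle F. Under M the ranges were 156 to 220 in KO CP2, 65.7 to 194 in KO vehicle, 145 to 241 in WT CP2 and 244 to 301 in WT vehicle. In KO against WT under vehicle, M, Drd2 was at 7.36, 8.17 and 19.5 CPM in KO and at 14.2, 21.7 and 22.7 CPM in WT, a log2 fold change of -0.74 ± 0.50 (adjusted p = 0.605). The midbrain sums of these 2 groups did not overlap, and their part in the Drd2 value was not tested.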

How the data were processed

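PolyA RNA of 36 mouse brain samples was extracted with a Trizol-based kit and sequenced as Illumina TruSeq libraries, per the labels' protocols. Counts per gene were deposited by the authors as 1 table. STAR, HTSeq and GRCm39 are named in the submitters' processing notes, without versions, and the annotation release and strandedness are not given in the sources used here. The 5 summary rows were left out. GENCODE M21 names matched 52073 of 56980 genes (91.4%, with 97.2% of counts), and exon lengths came from the same release.

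Genes were tested in R 4.3.3 with edgeR 4.0.16 (TMM, filterByExpr on the 8 groups, robust quasi-likelihood fit of all 36 samples), with Benjamini-Hochberg adjustment over 25601 genes within each of 18 comparisons, called under 0.05. DESeq2 1.42.0 was an alternative. Log2 CPM used a prior count of 2. The score fit adds the score of 13 genes as a covariate. The code was tested on simulated data. Within groups, 66 pairs of samples had a mean chi-square per gene of 11.5 to 117, so none agreed within sampling noise. Each title number occurs once, so nothing was paired.

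The members and the lists were chosen with earlier results of these data known. All members are named, and of the other striatal genes Adcy5, Rarb and Rxrg, as none was called without the score. The genes most like the members are from the 12 of highest correlation, and those most like each member come from the 3 of highest correlation. 1 gene is not reported here by name. Alternatives changed the size factors, the filter, covariates, the tool or the samples.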

Additional observations from a re-analysis of the deposited data

Results flagged for a closer look

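In the group KO CP2 F, which holds 5 samples, L227 stood apart from the other 4 by Dixon's test for 7 of the 9 members. It was at 48.3 CPM for Drd1 (the others 13.6 to 16.02), 58.9 for Tac1 (24.7 to 27.0), 36.2 for Drd2 (10.8 to 13.3), 465 for Ppp1r1b (131 to 177), 93.0 for Rgs9 (23.7 to 29.1), 310.97 for Pde10a (95.0 to 116) and 189 CPM for Rasd2 (63.4 to 78.3). In all, 54 sets of 5 values were tested, and chance flags about 1 in 20. The 7 are not independent, since they come from 1 library and from genes that vary together. Its values for Penk and Adora2a were also the highest of the group, within the limit of the test.

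For Rgs9 the KO against WT effect under CP2 differed between F and M by 0.62 on the log2 scale in the fit with the striatal score (adjusted p = 0.0362, edgeR). Without the score the difference was 0.19 (adjusted p = 0.929).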

How the results depend on the processing

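No paired analysis was possible because no title number is shared between groups. Of 162 member tests without the score, 0 were called in the reported fit, with RLE size factors, without the filter on low counts, with title number or with reads outside genes as covariate, or (144 tests) with only the groups compared. With the hippocampal score 1 was called and in DESeq2 1 (Tac1, M against F), and without the 3 libraries of high score 1 (Penk, KO against WT under CP2). Leaving out 1 library in turn gave 0 to 1 calls, with a call in 6 of 36 fits: Penk without L228, Tac1 in the other 5. The striatal score gave 12 calls: 1 in KO against WT under vehicle for F and 3 averaged, 2 under CP2 for M and 2 averaged, 1 in CP2 against vehicle in KO for M, 2 in M against F (Rgs9 0.23 and Pde10a 0.20, with the sign turned) and 1 in the F minus M difference under CP2. The alternatives gave 396 fold changes of members in the averaged comparisons. Of these, 54 had another sign than the reported fit and were called in neither. Of the 54, 18 came from the 45 with the striatal score as covariate, and the cause was not tested.

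These 12 depend on how the score is built, and the alternatives to it were chosen after seeing the data. A score from the 19 other striatal genes left 1 call (Penk under CP2, 0.61, adjusted p = 0.00504) and 0 in the other 6 comparisons. A further covariate for reads outside genes left 2 (Penk 0.48 and Rasd2 -0.20 under CP2). Adding a hippocampal score left 8, with 1 under CP2 for M and 0 for vehicle F and for the F minus M difference. Adding a midbrain score left 9, with 1 in the vehicle average and 0 in the F minus M difference. Leaving out the 3 libraries of high score left 9, with 1 in the CP2 average (Penk then 0.55, adjusted p = 0.0551), 1 in M against F and 0 in the F minus M difference. Leaving out 1 library in turn gave 9 to 15 calls, 1 to 4 in the vehicle average, 2 to 3 in the CP2 average, 1 to 2 in M against F and 0 to 2 in each of the others. The members' median share of variance between groups was 13.8% to 25.6% and 19.0% without TMM. Counts of at least 200 per library mean that depth limits no member. The spread between samples of a group was wide, and where it comes from was not tested.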

Other observations

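Subtracting the striatal score from each gene takes out variation shared with striatal genes, so what is left cannot show whether Penk follows them. Before subtraction Rxrg, a gene of the score, was closest to Penk (r = 0.86). After it, other genes followed Penk most closely over the 36 samples. These genes were picked after their values were seen, so their correlations are given as descriptions. The 7 closest were the protocadherin Pcdh8 (Pearson's r = 0.79, Spearman's rho = 0.65), Arhgdib (0.78, 0.65), the transcription factor Stat3 (0.75, 0.69), Itgb5 (0.72, 0.66), Sox3 (0.72, 0.67), Hic1 (0.72, 0.64) and the complement gene C1qc (0.71, 0.65). Genes known to be raised by neuronal activity or seizures were then chosen to look at next to them, with the closest genes already known. Their r and rho were 0.67 and 0.58 for Nptx2, 0.57 and 0.47 for Npy, 0.56 and 0.51 for Bdnf. They were 0.54 and 0.45 for Vgf, 0.47 and 0.28 for Sst, 0.31 and 0.17 for Fos, and 0.13 and 0.003 for Arc. Within KO samples r was 0.85 for Pcdh8, 0.78 for Stat3 and 0.76 for Nptx2, and within WT samples 0.35, 0.66 and 0.39. The difference between genotypes was not tested. All values share the libraries and the score that was subtracted.

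For Drd2, 4 genes of dopamine neurons were looked at in the same way, also picked after values were seen. Here r was 0.66 for Th, the rate-limiting enzyme of dopamine synthesis, 0.66 for Ret, 0.53 for Slc6a3 and 0.28 for the vesicular transporter Slc18a2. Within WT samples the values were 0.86, 0.88, 0.72 and 0.67, and within KO samples 0.40, 0.31, 0.35 and -0.16, and the difference between genotypes was not tested. Of these, Th and Ret ranked 7 and 8 among all genes, behind genes such as Arhgef10 (0.69) and Aktip (0.68). Ret is not among the 7 genes of the midbrain score, and for its genes Ddc, En1, Chrna6 and Aldh1a1 no single values are given. The whole midbrain score gave r = 0.44 (adjusted permutation p = 0.392) and rho = 0.56 (adjusted permutation p = 0.03).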
